A study of Rattus norvegicus with 17 samples.

Results

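The genes described here encode 8 enzymes that build cholesterol and other lipids from acetate and acetoacetate units: Aacs, Hmgcs1, Idi1, Fdps, Fdft1, Sqle, Cyp51 and Dhcr7. They were chosen by name, as the probes whose annotated gene symbol or synonym is one of these 8. In the annotation used here 7 of the 8 have a probe, 1 each, and Hmgcs1 has none and is not measured. All 7 were detected on all 17 arrays and entered the test, among 10457 tested probes of 22226 on the array, which represent 7293 named genes.

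The RNA came from hippocampal synaptosomes, a fraction of pinched-off nerve terminals with attached glial and other membranes, prepared by differential centrifugation of the whole hippocampus from male rats of the hybrid strain Fischer 344 x Brown Norway (F1). The groups were adult rats of 12 months (n = 5), aged intact rats of 28 months (n = 5) and aged impaired rats of 28 months (n = 7), where aged rats were divided by their performance in the Morris water maze, a test of spatial memory. The labels name no transgene and no drug treatment, and 1 Illumina RatRef-12 array was run per rat. A fraction enriched by centrifugation is a limited model of the nerve terminal, because it holds RNA of several cell types in the same tube. For each gene the comparisons ask whether its RNA differed with age and whether, among aged rats, it differed with memory performance.

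Brain cholesterol is made almost wholly within the brain, since lipoproteins of the blood do not cross the blood-brain barrier, and glia pass cholesterol to neurons on lipoproteins of their own. In the mevalonate pathway, acetyl units are joined to 3-hydroxy-3-methylglutaryl-CoA (by Hmgcs1) and reduced to mevalonate, which is turned into isoprene units. These are linked to farnesyl diphosphate, the branch point to sterols, ubiquinone, dolichol and prenylated proteins, and farnesyl diphosphate is paired to squalene, cyclised and trimmed to cholesterol. Genes of the sterol branch are classically switched on together by sterol regulatory element-binding proteins when membrane sterol is low. Aacs stands beside this pathway: it activates the ketone body acetoacetate in the cytosol and so feeds it directly into sterol and fatty acid synthesis.

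The stretches of promoter nearest the start site are shown for 4 genes whose values are described most closely below: Aacs, the gene with the smallest p with age, its neighbours of opposite sign Idi1 and Fdps, and Cyp51, the sterol gene on which adult and aged intact arrays did not overlap. They are RefSeq sequences of build GRCr8, cover positions -150 to -1 from the start site and are written 5′ to 3′ on the gene's own strand. Capitals mark matches to 4 motifs searched on both strands: the sterol response element TCACNCCAC, the CCAAT box CCAAT, the E-box CANNTG and the GC box GGGCGG.
Aacs (chr12:36817775-36817924, minus strand): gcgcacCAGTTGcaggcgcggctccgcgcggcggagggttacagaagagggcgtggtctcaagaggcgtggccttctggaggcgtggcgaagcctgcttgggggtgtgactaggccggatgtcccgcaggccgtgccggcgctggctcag
Idi1 (chr17:66547525-66547674, minus strand): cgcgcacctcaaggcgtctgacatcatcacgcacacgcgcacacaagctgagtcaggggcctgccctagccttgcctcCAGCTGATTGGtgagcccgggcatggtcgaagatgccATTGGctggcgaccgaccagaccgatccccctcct
Fdps (chr2:176804817-176804966, minus strand): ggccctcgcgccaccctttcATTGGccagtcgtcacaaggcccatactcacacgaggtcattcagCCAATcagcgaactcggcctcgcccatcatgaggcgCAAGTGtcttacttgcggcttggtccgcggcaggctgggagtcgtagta
Cyp51 (chr4:30991543-30991692, plus strand): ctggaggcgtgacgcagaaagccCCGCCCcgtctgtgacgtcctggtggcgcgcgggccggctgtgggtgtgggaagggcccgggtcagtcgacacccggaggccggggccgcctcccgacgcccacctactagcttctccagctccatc

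Over the full 300 bases held for each gene (250 before the start site and 50 from it), 6 of the 8 genes had an entry. Idi1 held the CCAAT box at -66 and -35, Fdps at -130 and -85, and Hmgcs1 at -188 and -133, while the windows of Aacs, Cyp51 and Dhcr7 held none. In Idi1 an E-box ends directly before the CCAAT box at -66, without overlap. The CCAAT box was found in 37.5% of all 33469 promoters of this length, the E-box in 72.1% and the GC box in 33.1%. The exact letters searched for the sterol response element were found in 1.12% of them and in none of these 6 windows. Other spellings of that element were not searched, so whether a window lacks it was not tested. These matches describe letters only and were not tested against the intensities.

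Intensities below are log2 values after background correction and quantile normalisation between arrays. All differences, 95% intervals and p-values come from a single limma fit to the 3 groups, and adjusted p-values use the Benjamini-Hochberg method over all 10457 tested probes. The difference for all aged rats is the mean of the aged intact and aged impaired means minus the adult mean. Each gene has its own probe, so levels are compared between rats and never between genes. In a bulk fraction of this kind, fewer cells of a type and less RNA per cell cannot be told apart. All adult arrays lay on 1 slide and all aged arrays on another, so age and slide cannot be told apart wherever adults are compared. The intact and impaired arrays shared their slide. Adult replicate 4 stood apart from the rest, with 10440 detected probes and a mean correlation with the other arrays of 0.976, where every other array had at least 0.986.

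With age, the sterol genes and Aacs lay on opposite sides. All 6 measured sterol genes had higher means in aged than in adult synaptosomes, by 0.10 to 0.29 on the log2 scale, and Aacs had a lower mean by 0.36. Without adult replicate 4 the range of the 6 was 0.06 to 0.17, with Fdft1 and Sqle at 0.06 each, and without adult replicate 1 Fdft1 was at 0.05. None of the 7 passed an adjusted p of 0.05, which 1.2% of all tested probes did. At an unadjusted p of 0.05, 3 of 7 passed (Aacs, Fdps and Cyp51), where 17.2% of all probes passed. No gene separated all aged from all adult arrays without overlap, which 0.918% of all probes did. The median difference of the 6 sterol genes was 0.14, and 44.1% of all tested probes lay above 0. The values of every array are shown in the plot of the 7 genes by group.

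**Figure D1:**
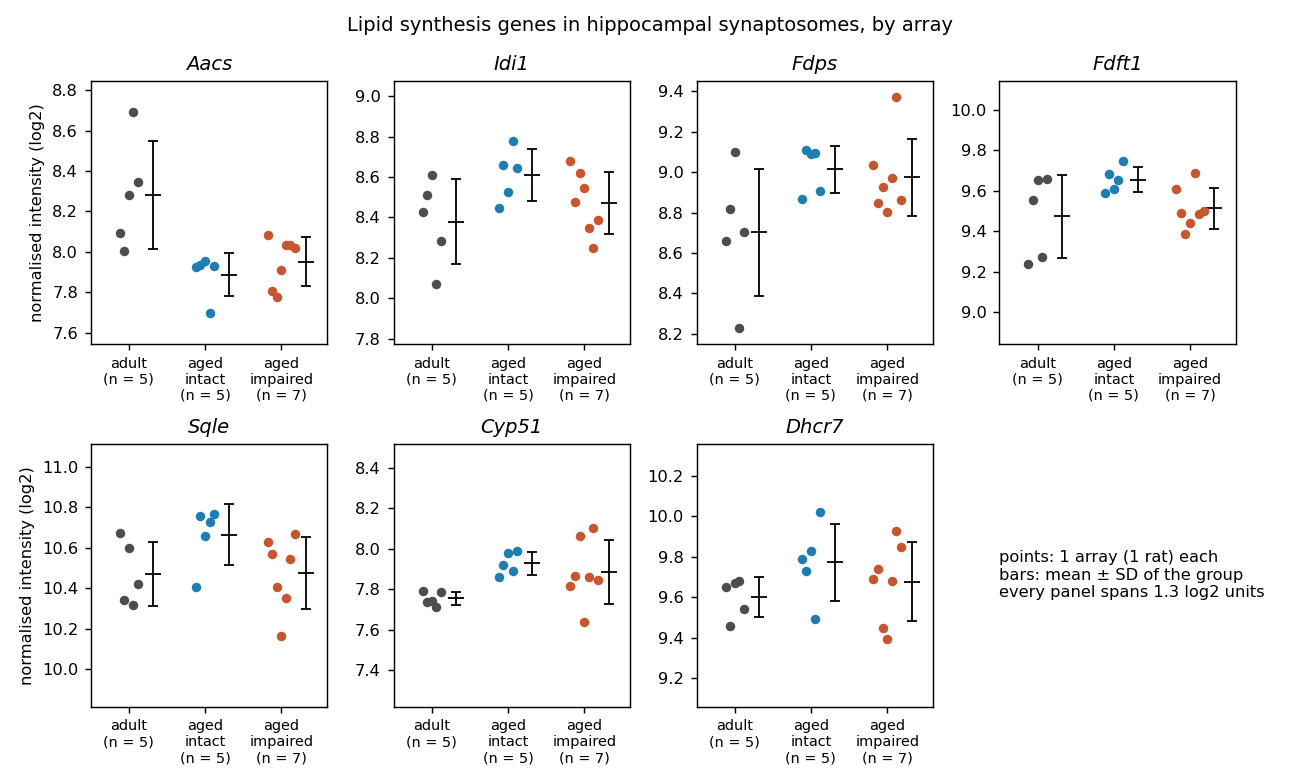
Normalised log2 intensity of 7 lipid synthesis genes (vertical axes, each spanning the same number of log2 units) in adult (n = 5), aged intact (n = 5) and aged impaired (n = 7) rats, with 1 point per array and bars for the group mean ± SD. Aacs arrays of both aged groups lie at or below 8.09, adult arrays reach 8.69, and the aged intact arrays of Cyp51 all lie above the adult arrays.

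Aacs, acetoacetyl-CoA synthetase, had intensities of 8.09, 8.00, 8.28, 8.69 and 8.35 in adult replicates 1 to 5. The aged intact arrays read 7.93, 7.93, 7.95, 7.70 and 7.93, and the aged impaired arrays ranged from 7.78 through a median of 8.02 to 8.09. Every aged array lay below the adult mean of 8.28 ± 0.27 (SD, n = 5), and 8 of 12 lay below the lowest adult array. The aged intact group did not overlap the adults, and 3 of 7 aged impaired arrays lay below all adults. The difference was -0.36 for all aged rats (standard error 0.09, 95% interval -0.55 to -0.17, a change of -22.2%), with an adjusted p of 0.0636 in limma, the smallest of the 7 genes and place 156 among all tested probes. Adult replicate 4 carried the highest value, and without it the difference was -0.26 with an adjusted p of 0.153 in limma. Leaving out adult replicate 1 or adult replicate 2 instead, the arrays with the lowest adult values, gave -0.41 and -0.43 with adjusted p-values of 0.0438 and 0.0469.

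Against adults, the Aacs difference was -0.40 in aged intact rats (95% interval -0.62 to -0.17, limma adjusted p = 0.13) and -0.33 in aged impaired rats (95% interval -0.54 to -0.12, limma adjusted p = 0.134). These 2 comparisons share the adult arrays. Between the aged groups the difference was 0.06 (95% interval -0.14 to 0.27, limma adjusted p = 0.996). From low to high the group means ran from aged intact to aged impaired to adult, and the aged groups did not differ beyond their spread (SD 0.11 and 0.12).

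Idi1, isopentenyl-diphosphate isomerase, interconverts the pair of isoprene units from which all longer chains are made. Its adult intensities were 8.42, 8.51, 8.61, 8.07 and 8.28, its aged intact intensities 8.45, 8.66, 8.52, 8.78 and 8.65, and its aged impaired intensities ran from 8.25 through a median of 8.48 to 8.68. All 5 aged intact arrays lay above the adult mean of 8.38, the groups overlapped, and adult replicate 4 was the lowest of all arrays. The differences against adults were 0.23 in aged intact rats (95% interval 0.02 to 0.45, limma adjusted p = 0.353) and 0.09 in aged impaired rats (-0.11 to 0.29, limma adjusted p = 0.633). For all aged rats the difference was 0.16, and 0.09 without adult replicate 4.

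Fdps, farnesyl diphosphate synthase, makes the branch-point isoprenoid and is the enzyme inhibited by nitrogen-containing bisphosphonates. The adult arrays read 8.66, 8.82, 9.10, 8.23 and 8.70, and the aged intact arrays 8.87, 9.11, 9.09, 9.09 and 8.91. Aged impaired arrays ran from 8.80 through a median of 8.93 to 9.37, with replicate 6 the highest of all arrays. All 12 aged arrays lay above the adult mean of 8.70 ± 0.31 (SD, n = 5), but only 2 lay above the highest adult array. Fdps had the largest age difference among the 6 sterol genes, 0.29 (standard error 0.11, 95% interval 0.05 to 0.53, a change of 22.4%), with an adjusted p of 0.203 in limma. It was 0.17 without adult replicate 4, whose value was the lowest. The aged intact difference was 0.31 and the aged impaired difference 0.27. The RefSeq table lists 5 Fdps and 1 Idi1 pseudogenes in the rat genome, and whether the probes also bind their transcripts is not known here.

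Fdft1, squalene synthase, commits farnesyl diphosphate to sterols. Adult arrays read 9.24, 9.55, 9.65, 9.27 and 9.66, aged intact arrays 9.59, 9.68, 9.61, 9.65 and 9.75, and aged impaired arrays ran from 9.39 through 9.49 to 9.69. Adult replicates 1 and 4 lay below the other 3, and the aged intact arrays were the most even of the 3 groups (SD 0.06, against 0.20 in adults and 0.10 in aged impaired rats). The difference was 0.18 for aged intact rats (95% interval 0.01 to 0.35, limma adjusted p = 0.368) and 0.04 for aged impaired rats (-0.12 to 0.20, limma adjusted p = 0.82). The second of these was below 0 without adult replicate 1 (-0.02) or adult replicate 4 (-0.01).

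Sqle, squalene epoxidase, carries out the first oxygen-dependent step and is regarded as a rate-limiting enzyme of the sterol branch. The adult values were 10.67, 10.34, 10.60, 10.32 and 10.42, the aged intact values 10.40, 10.76, 10.66, 10.73 and 10.77, and the aged impaired values ran from 10.16 through 10.54 to 10.67. Aged intact rats had a mean of 10.66, and adults and aged impaired rats both had 10.47. Hence the difference against adults was 0.19 in aged intact rats (95% interval -0.02 to 0.41, limma adjusted p = 0.441) and 0.0044 in aged impaired rats (-0.19 to 0.20), whose sign turned when single arrays were left out. Between the aged groups Sqle had the smallest p of the 7 genes, with aged impaired below aged intact by 0.19 (95% interval -0.39 to 0.01, limma adjusted p = 0.996), and 1 of 7 aged impaired arrays lay above the aged intact mean. Without aged impaired replicate 4, the lowest array, that difference was -0.14.

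Cyp51, lanosterol 14-alpha-demethylase, removes a methyl group from the first cyclic sterol. The adult arrays were very close together at 7.79, 7.74, 7.74, 7.71 and 7.79 (SD 0.03), and the aged intact arrays read 7.86, 7.92, 7.98, 7.89 and 7.99. The aged impaired arrays ran from 7.64 (replicate 4) through 7.86 to 8.10. All 5 aged intact and 6 of 7 aged impaired arrays lay above the highest adult array, so Cyp51 was the sterol gene with the cleanest order by age, and the exception lay below all adults. The difference was 0.15 for all aged rats (standard error 0.06, 95% interval 0.03 to 0.27, a change of 11.1%, limma adjusted p = 0.19). Without aged impaired replicate 4 it was 0.17 with a limma adjusted p of 0.0741. In aged intact rats alone it was 0.17 (95% interval 0.03 to 0.32, limma adjusted p = 0.294).

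Dhcr7, 7-dehydrocholesterol reductase, makes cholesterol in the last step of one of its routes, and its loss causes Smith-Lemli-Opitz syndrome in humans. The adult arrays read 9.65, 9.46, 9.67, 9.68 and 9.54, the aged intact arrays 9.79, 9.73, 9.83, 9.49 and 10.02, and the aged impaired arrays ran from 9.40 through 9.69 to 9.93. In all, 8 of 12 aged arrays lay above the highest adult array and 2, both aged impaired, below the lowest. The aged groups were more spread than the adults (SD 0.19 in each, against 0.10), and the difference with age was 0.12 (95% interval -0.06 to 0.31, limma adjusted p = 0.481).

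Set side by side, the sterol genes had higher means in aged intact than in adult rats by 0.17 to 0.31, with a median of 0.19, and by 0.13 to 0.19, with a median of 0.16, when adult replicate 4 was left out. Fdps moved most, from 0.31 to 0.19. Of the 7 genes 5 passed an unadjusted p of 0.05 in limma (Aacs lower, and Idi1, Fdps, Fdft1 and Cyp51 higher), where 12.7% of all probes did, and 0 passed the adjusted threshold, where 0.306% of all probes did. After quantile normalisation, adult and aged intact arrays did not overlap for 2 genes, Aacs and Cyp51, and for 3.42% of all probes. On the signals before normalisation both genes overlapped. Aacs ran from 321 to 502 in adult and from 234.9 to 452.8 in aged intact arrays. Cyp51 in aged intact replicate 1 (225.1) lay below the lowest adult array (254.5). In aged impaired rats the same 6 differences against adults spanned 0.0044 to 0.27, with a median of 0.08. There 2 of 7 genes, Aacs and Fdps, passed the unadjusted threshold (16.3% of all probes), 0 the adjusted threshold (0.363% of all probes), and 0 were free of overlap (2.15% of all probes). Both comparisons use the same adult arrays.

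**Figure D2:**
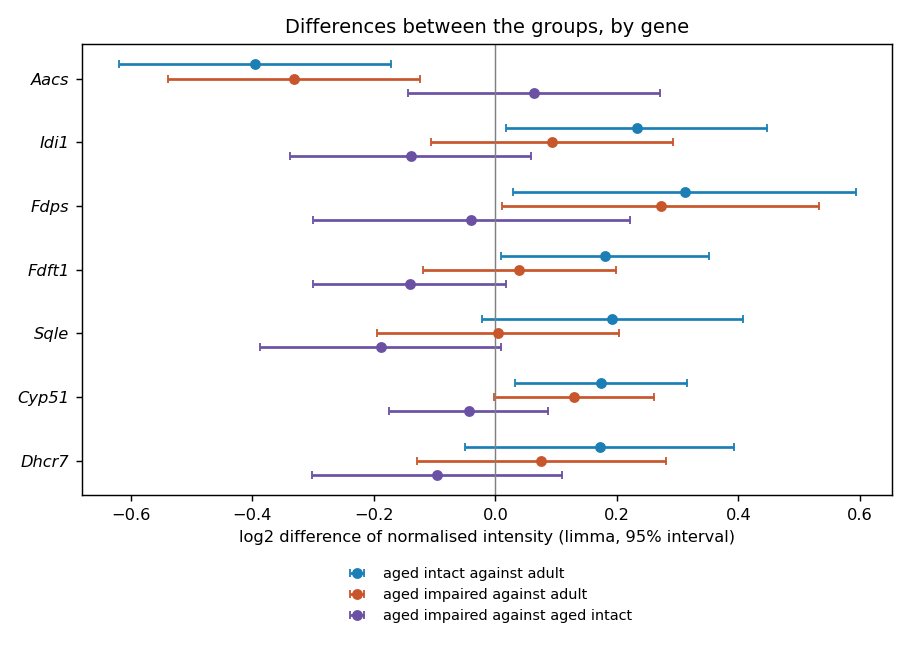
Log2 difference of each gene (horizontal axis) with its 95% interval from limma, for each aged group minus the adults and for the impaired minus the intact aged rats. Aacs lies left of 0 in both comparisons with adults (-0.40 and -0.33), and the points of impaired minus intact lie left of 0 for all sterol genes, each with an interval that includes 0.

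Between the aged groups, all 6 sterol genes had lower means in aged impaired than in aged intact rats after quantile normalisation, by 0.04 to 0.19 with a median of 0.12, but 5 of 6 lay above 0 on signals without normalisation, where the median of all probes was itself shifted by 0.09, and 2 of 6 lay above 0 with median scaling. No interval excluded 0. At an unadjusted p of 0.05 in limma 0 of the 7 genes passed, against 3.32% of all probes, and at an adjusted p of 0.05 0 passed, against 0% of all probes. The 2 groups overlapped for every gene, and 0.124% of all probes were free of overlap. The widest interval was that of Fdps, from -0.30 to 0.22, and the narrowest that of Cyp51, from -0.18 to 0.09. These are the sizes of difference left undecided by the fit to all 17 arrays, whose spread includes that of the adults.

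Single arrays stood out over several sterol genes at once. Averaged over the 6 genes, adult replicate 4 lay 0.18 below the adult mean, with only 1 of 6 genes above it, and adult replicate 3 lay 0.17 above it. All aged intact arrays lay above the adult mean, by 0.10 to 0.28. Of the aged impaired arrays 6 lay above it by 0.08 to 0.22, and replicate 4 lay 0.07 below it, with 2 of 6 genes above. That array also had the highest mean over 12 microglia and macrophage markers (9.86, where the other aged arrays had 8.58 to 8.90). Its mean over 3 endothelial markers was the highest too (7.75, where all others had at most 7.38). The endothelial mean follows mainly Cldn5, with an SD of 0.61 in aged impaired rats, against 0.10 for Vwf and 0.05 for Esam. What part these markers have in the sterol values of the array was not tested.

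Deviations of the genes from their group means were compared over the 17 arrays, in 21 pairs. After Benjamini-Hochberg adjustment 0 pairs passed in permutation tests (two-sided, 100000 permutations) of Pearson's r or of Spearman's rho. The 15 pairs of sterol genes had a median r of 0.31, with 12 above 0, and all pairs of named genes had a median of 0.01, with 51% above 0. Some sterol pairs changed much with arrays left out. Cyp51 and Dhcr7 went from 0.39 to -0.19 without aged impaired replicates 4 and 6. Sqle and Cyp51 went from 0.38 to -0.09 without aged impaired replicate 4 and aged intact replicate 1. Without adult replicate 4 and aged impaired replicate 6, Fdps and Cyp51 fell from 0.41 to 0.18, and Idi1 and Fdps rose from 0.39 to 0.54. All points of a pair come from the same RNA and share its normalisation. Fdps and Fdft1, which follow each other in the pathway, had the highest r, 0.50 (permutation p = 0.148, adjusted p = 0.444). The largest value of either sign was that of Aacs and Idi1, with r = -0.63 and rho = -0.55 (p = 0.0224 and 0.0355, adjusted p = 0.235 and 0.322), and without adult replicates 2 and 4 r was -0.42. Aacs and Dhcr7 had r = 0.49 and rho = 0.49 (p = 0.0174 for r, adjusted p = 0.235), and r = 0.50 without the same arrays.

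**Figure D3:**
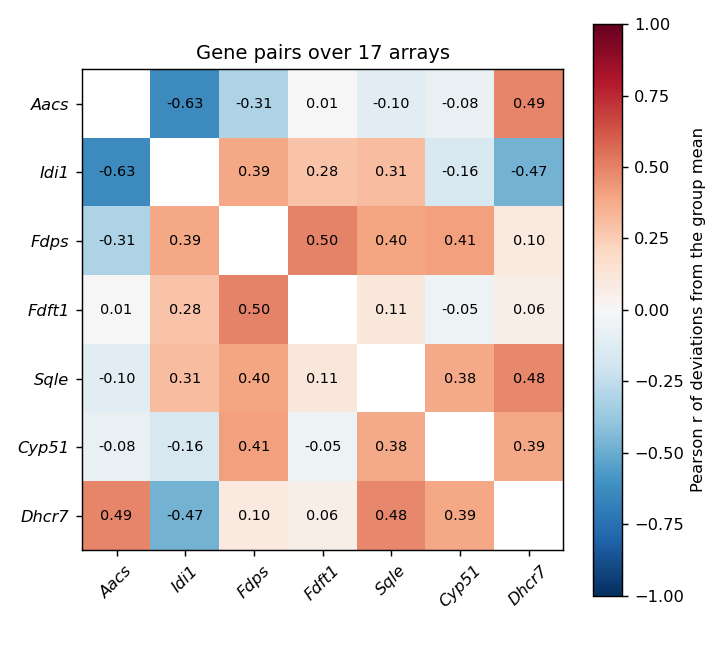
Pearson's r between the deviations of each pair of genes from their group means over 17 arrays, as colour and printed value. Fdps has values of 0.39 to 0.50 with Idi1, Fdft1, Sqle and Cyp51, and Aacs has -0.63 with Idi1.

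Among 7286 other named genes, those whose deviations followed the mean standardised deviation of the 7 genes most closely were Arsg (r = 0.80), Sccpdh (0.79), Rsl24d1 (0.77), Tmem60 (0.77) and Dnajc6 (0.77). The most opposite were Dcaf11 (-0.86), Bnip2 (-0.85), Svil (-0.84), Inpp5d (-0.84) and Acvrl1 (-0.83). These are extremes chosen from all genes over 17 arrays. Of 53 other tested genes of the lipid lists, Msmo1, a methylsterol monooxygenase acting after Cyp51, had 0.72, and the values ran from -0.55 (Npc2, a lysosomal cholesterol carrier) to 0.74 with a median of 0.07. The highest belonged to Mbtps2, whose dim probe had means of 6.96 to 6.98 with SDs of 0.01 to 0.03 in the groups, so that its r rests on very small deviations.

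The rest of the pathway did not share a direction. In the mevalonate list 6 of 9 genes were tested, 0 passed the adjusted threshold in any comparison, and the median age difference was -0.09, with 2 of 6 (Idi1 and Fdps) above 0. Pmvk, phosphomevalonate kinase, had a difference of -0.17 (limma adjusted p = 0.0876), with means of 7.37 in adult, 7.22 in aged intact and 7.19 in aged impaired rats. Mvd, which decarboxylates mevalonate diphosphate to the first isoprene unit, had -0.29 (limma adjusted p = 0.14). The kinase and the decarboxylase just before Idi1 thus had lower means with age, and Idi1 and Fdps higher ones. Without adult replicate 4 all 4 were closer to 0, with Pmvk at -0.11 and Mvd at -0.18. Pmvk was -0.42 with a robust background or with background subtraction, and it passed without adult replicate 1 (-0.20, limma adjusted p = 0.0438).

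In the list from squalene to cholesterol, 10 of 14 genes were tested, 0 passed and 7 lay above 0, with a median of 0.10. Of these 7, 4 are the described genes Fdft1, Sqle, Cyp51 and Dhcr7, and the other 6 tested genes lay 3 above 0 (Msmo1, Hsd17b7 and Sc5d) and 3 below. Sc5d, sterol-C5-desaturase, had a difference of 0.28 (limma adjusted p = 0.117) and Msmo1 one of 0.24 (adjusted p = 0.134). Nsdhl, the sterol dehydrogenase that works together with Msmo1, had -0.17 (adjusted p = 0.174). Sc5d was 0.18 and Nsdhl -0.10 without adult replicate 4, and Sc5d passed without adult replicate 1 (0.35, limma adjusted p = 0.0493). Over all 7293 named genes the median was -0.01, with 41.3% above 0. The members of both lists are shown in pathway order in the plot of age differences.

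**Figure D4:**
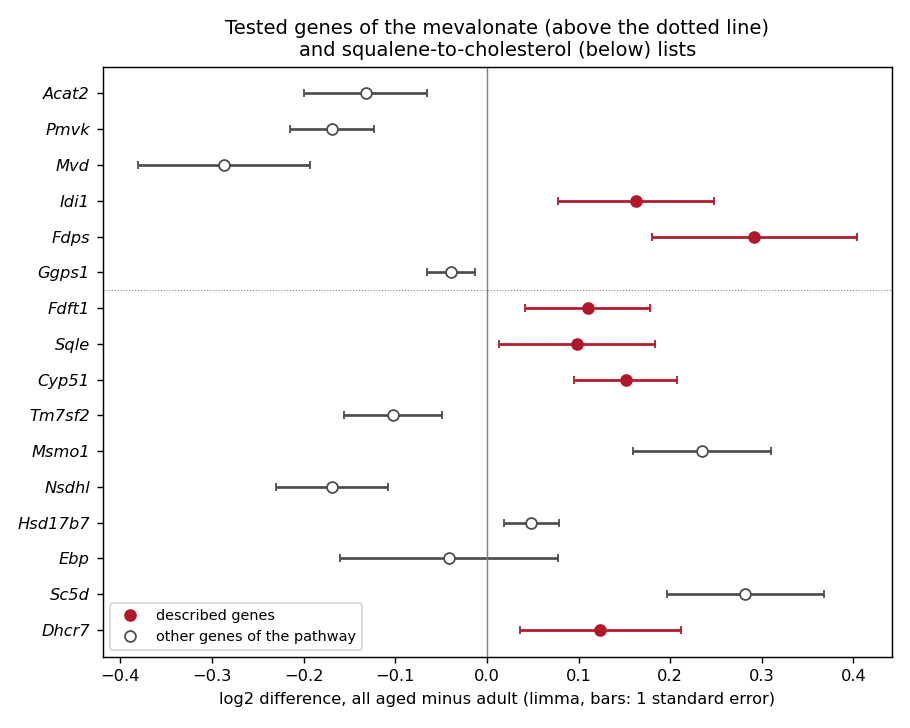
Log2 difference between all aged and adult rats (horizontal axis, bars are 1 standard error from limma) for the 16 tested genes of the mevalonate and squalene-to-cholesterol lists, with the 6 described sterol genes filled. Filled points lie between 0.10 and 0.29, Mvd lies at -0.29 and Pmvk at -0.17, and Sc5d at 0.28.

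Among regulators of sterol synthesis, 10 of 15 listed genes were tested and 0 passed (median 0.02, 7 above 0). Rnf139, a ubiquitin ligase of the endoplasmic reticulum with a sterol-sensing domain, had 0.29 (limma adjusted p = 0.208), Srebf1, which encodes the lipogenic transcription factor, had 0.20 (adjusted p = 0.338), and Stard4, a cytosolic sterol carrier, had -0.02 (adjusted p = 0.559). Srebf1 was 0.10 without adult replicate 4. Stard4 is a dim probe (adult mean 6.94, not detected on every array), and its value was -0.20 with a robust background or with background subtraction. In the list of ketone body use and acetyl-CoA supply, to which Aacs belongs, 7 of 11 genes were tested and 0 passed (median -0.11, 3 above 0). There Slc25a1, the mitochondrial citrate carrier, had -0.18 (adjusted p = 0.314) and Acat1, the mitochondrial acetoacetyl-CoA thiolase, 0.12 (adjusted p = 0.404).

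Fatty acid synthesis had 8 of 13 genes tested, 0 passed and a median of 0.02, with Elovl7, Thrsp and Fads1 at 0.02, 0.12 and 0.06. Thrsp and Fads1 were at 0.24 and 0.12 without adult replicate 4. Elovl7, also dim (adult mean 6.92), was 0.22 with a robust background and 0.20 with background subtraction. The isoprenoid branches to ubiquinone, dolichol and prenylated proteins had 9 of 12 tested, 0 passed and a median of -0.05, with Pggt1b, Nus1 and Coq2 at -0.05, -0.09 and -0.05. With a robust background Pggt1b and Coq2 were at -0.18 and -0.12, and without adult replicate 4 Nus1 and Coq2 were at -0.05 and -0.02.

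Among the pathway lists, only that of cholesterol transport and removal held a gene that passed, 1 of 11 tested (of 19 listed, median 0.01, 8 above 0). Over all 7293 named genes, 36 passed as higher with age and 61 as lower. Lcat, the lecithin-cholesterol acyltransferase that esterifies cholesterol on lipoproteins, rose by 0.40 with age (standard error 0.09, 95% interval 0.21 to 0.59, limma adjusted p = 0.0469), with means of 7.71 in adult, 8.20 in aged intact and 8.03 in aged impaired rats. Adult arrays ran from 7.59 to 7.92 and aged arrays from 7.81 to 8.42, so the groups overlapped. Its call was lost in 13 of 17 fits with an array left out, where the difference stayed between 0.37 and 0.45 and the adjusted p reached 0.147 without adult replicate 4.

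Myelin-forming oligodendrocytes make much of the cholesterol of the brain, and their markers were therefore set beside the sterol genes. Of 13 listed markers 11 were tested. For all aged rats 0 passed the adjusted threshold and the median was 0.03. In aged intact rats the median against adults was 0.14, with 9 of 11 above 0 and 0 passing. The largest were Cldn11 at 0.67, Mag at 0.38 and Ugt8 at 0.33. In aged impaired rats the median was -0.02, with 5 of 11 above 0 and 0 passing. Cldn11, Mag and Ugt8 were above 0 there too, at 0.25, 0.29 and 0.17, and Mobp and Olig1 were below 0 in both aged groups. The medians of 0.14 and -0.02 stand beside 0.19 and 0.08 for the 6 sterol genes. Between the aged groups 10 of 11 lay lower in the impaired group after quantile normalisation (median -0.16, 0 passing). Other normalisations were not tried for these markers. The 3 with the smallest p were those of Cldn11 (-0.43), Mal (-0.28) and Mog (-0.22), each with a limma adjusted p of 0.996. The mean over the markers ran from 9.92 to 10.21 in adult, 10.09 to 10.33 in aged intact and 9.85 to 10.22 in aged impaired arrays, and its part in the sterol values was not tested.

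Markers of the other cell types were also measured. The 12 tested microglia and macrophage markers all lay above 0 with age (median 0.26). Of these 1 passed, P2ry12 at 0.54 (limma adjusted p = 0.0311), where 1.2% of all tested probes did. Mean levels over the 12 were 8.42 to 8.58 in adult and 8.58 to 9.86 in aged arrays. The 13 neuron and synapse markers had a median of 0.0049 and ranged from 10.19 to 10.50 in mean level over all arrays, and the 6 astrocyte markers had a median of 0.02 and ranged from 11.66 to 12.16, with 0 passing in either. The 3 tested endothelial markers, of 8 listed, had a median of 0.03 (mean levels 7.03 to 7.75). For the 2 tested choroid plexus markers, of 6 listed, it was -0.13 (6.96 to 7.54). Vwf and Esam of the endothelium and Kcnj13 of the choroid plexus were dim (adult means 6.97, 6.93 and 6.96). In the microglia list Cx3cr1 and Ptprc were among the dim probes (6.93 and 6.87). What part any of these cell types has in the sterol and Aacs values was not tested.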

How the data were processed

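The deposited tables give, per probe, an intensity (the mean signal of its beads, neither background-subtracted nor normalised) and a p-value of detection over negative control beads, both exported by the authors from GenomeStudio, for which the submitters' notes name version 1.0.6. The deposited value table holds the same signals (largest difference 0). Mean signals per array ran from 313 to 617. Precision is limited by the number of arrays.

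Background correction (neqc of limma 3.58.1 in R 4.3.3, offset 16) was followed by quantile normalisation and log2. The background SD per array was 120 to 225 in this correction and 4.35 to 7.84 by a robust estimate. Sizes of change, percent changes included, hold for this scale. Some dim probes had smaller differences on it than with a robust background (Pmvk -0.17 against -0.42). Over the other settings the age difference ran from -0.406 to -0.128 for Aacs and from 0.132 to 0.393 for Cyp51. A probe was tested if every array of 1 or more groups had its detection p under 0.05, and the brightest probe stood for a gene with several. The groups, from the sample labels, entered a single lmFit and eBayes fit with Benjamini-Hochberg adjustment at 0.05, from which every adjusted p of a gene comes. Adjusted p-values of correlations are over the 21 pairs. The fit was tested on simulated data whose changes were larger than those of the described genes in the main fit. How well it finds differences of their size was not tested.

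The genes and lists were chosen with earlier results of these data known. Named from each pathway list were genes past the threshold in any comparison, otherwise the 3 with the smallest p with age, and, beside them, the 5 genes most and least like the 7. Myelin, microglia and similar-gene examples outside this rule were chosen after their values were seen. Probes were named by the platform annotation (13192 of 22226 with a symbol, 13151 updated by Entrez ID). Alternatives were other background corrections, normalisations, offsets, filters and tests, array weights, slide position, replicate number, and each array left out. The methods' analysis of variance with Student-Newman-Keuls pairs was among them. Replicate number is only the sample order within a group and names no batch or pair. The maze scores and quantitative PCR were not used here.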

Additional observations from a re-analysis of the deposited data

Results flagged for a closer look

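Within each group the highest and the lowest array of every gene were compared with the nearest other array, relative to the range of the group (Dixon's criterion at 95%), over 21 combinations of gene and group. Chance marks about 1 group in 20. Aacs in aged intact replicate 4 was far below the rest of its group, at 7.70 on the log2 scale, where the other 4 arrays lay between 7.93 and 7.95. Without this array the Aacs difference between aged intact and adult rats was -0.35. Fdps in aged impaired replicate 6 was far above its group, at 9.37, where the next array had 9.03. Without it the Fdps difference between aged impaired and adult rats was 0.205.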

How the results depend on the processing

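Of the 7 genes, the number called was 0 in all 4 comparisons. It was 1 (Aacs) for all aged against adult rats with no background correction (-0.33, limma adjusted p = 0.047), and 0 to 1 with an array left out. It was 1 (Aacs) in each aged group against adults by the methods' test, whose one-way p was 0.00758 and 0.209 after Benjamini-Hochberg adjustment, and 1 (Cyp51, limma adjusted p = 0.0477) for aged intact rats when only the groups compared were fitted. Of all 10457 tested probes, the methods' test called 288 for aged intact and 299 for aged impaired rats against adults, where the main fit called 32 and 38. With no background correction 156 probes were called for all aged rats, where the main fit called 125. The methods' test gives no value for all aged rats pooled. The causes of these changes were not tested.

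Signs turned for small differences. For aged impaired against adult rats, Sqle was -0.0123 with background subtraction and average normalisation, -0.048 with the replicate number as a block and -0.0345 to 0.0561 with an array left out. Dhcr7 was -0.0091 with the replicate number as a block, Idi1 -0.0102 with array weights, and Fdft1 -0.0191 to 0.0854 with an array left out. For aged impaired against aged intact rats, signals without normalisation gave 0.0129 for Idi1, 0.1041 for Fdps, 0.0069 for Fdft1, 0.0669 for Cyp51 and 0.0376 for Dhcr7, and median scaling gave 0.0458 for Fdps and 0.006 for Cyp51. Without normalisation the median of all probes shifted by 0.216 with age, where Nsdhl was 0.0713, Stard4 0.1417, Slc25a1 0.0587, Pggt1b 0.129, Nus1 0.1296 and Coq2 0.1445. The differences of the 6 sterol genes for all aged and for aged intact rats against adults stayed above 0, and those of Aacs below 0, under all alternatives and arrays left out.

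Replicate numbers give only the sample order within a group, so a shared number names no pair. Correlations of same-numbered arrays ran from -0.381 to 0.238, with 11 of 15 below 0.1. The replicate block, which stands for no known factor, called 0 of the 7 genes and 1 of all probes with age. The count of all probes called with age was 125, and 6 with median scaling, 57 with background subtraction and average normalisation, 48 with no detection filter, 75 with the 1.2-fold threshold, 77 with slide position, 78 without normalisation and 215 with array weights, and it ran from 29 (without adult replicate 4) to 199 (without adult replicate 1) with an array left out. Lcat lost its call without normalisation, with median scaling, with no filter, with the replicate block and with slide position (limma adjusted p of 0.0532 to 0.635).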
